A study of Mus musculus with 20 samples.

Results

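Cytosolic ribosomal protein genes encode the proteins that, with ribosomal RNA, build the large and the small subunit of the ribosome in the cytoplasm. They were taken by symbol from the 17880 genes listed in either of the deposited count tables. The names had to begin with Rpl or Rps and a digit, or be Rplp0, Rplp1, Rplp2 or Rpsa, and the Rps6k kinases, names with -ps and 1 gene that is not analysed here were left out. This gave 87 genes, all listed in both tables, of which 51 were assigned to the large subunit and 35 to the small subunit by name alone. The remaining gene, Rps19bp1, matched by name but encodes a protein that binds Rps19 and is no part of the ribosome. Of the ribosomal genes, 76 were core genes (45 large, 31 small), 5 were retrocopies, which are genes that arose from a reverse-transcribed mRNA (Rpl32l, Rpl37rt, Rps4l, Rps23rg1 and Rps27rt), and 5 were paralogues with a second, related protein (Rpl3l, Rpl7l1, Rpl22l1, Rpl36al and Rps27l). GENCODE vM21 lists Rpl32l and Rpl37rt as processed pseudogenes. Whether products of the retrocopies and paralogues are built into ribosomes was not tested. Rps4x ends in x because it lies on the X chromosome, and it is the core gene. In each comparison 86 of the 87 genes passed the filter on low counts, and Rpl3l, at a mean of 2.90 counts in cortex and 5.20 in hippocampus, did not.

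RNA was sequenced from frontal cortex and hippocampus of wild-type (Ncs1+/+) and knockout (Ncs1-/-) mice on a C57Bl6/J background, in 4 groups of 5 libraries. Ncs1 codes for a neuronal protein that senses calcium. The labels state neither an age nor how the deletion was built. Nor do they say that each library is its own mouse, so every p-value below reflects spread among samples that may be partly technical. Library names place every cortex library on lane 2 and every hippocampus library on lane 1, so region and lane cannot be told apart. In bulk tissue, fewer cells of a type and less RNA per cell cannot be told apart either. Depth was about 16600000 to 34600000 counts per library. Ncs1 was at 350.2 to 389.5 CPM (counts scaled to the effective size of the library) in wild-type cortex, against 256 to 265 CPM in knockout cortex, and at 427 to 471 against 277 to 326 CPM in hippocampus, so the knockout libraries kept much Ncs1 RNA without overlapping the wild type. Of the cortex markers, Tbr1, Cux2 and Rorb were lower in wild-type hippocampus than in wild-type cortex, at log2 fold changes of -1.55 (SE 0.13), -2.11 (SE 0.11) and -1.51 (SE 0.09), while Fezf2 was higher, at 0.68 (SE 0.14). Hippocampus markers (Prox1, C1ql2, Dsp, Wfs1, Neurod6 and Zbtb20) summed to 209 to 262 CPM in cortex libraries and 511 to 776 CPM in hippocampus libraries.

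The small subunit of the ribosome reads the mRNA and the large subunit joins the amino acids, and both need their proteins in fixed proportion. Many mRNAs of ribosomal proteins begin with a run of pyrimidines, the 5′ terminal oligopyrimidine tract, through which mTOR signalling sets their translation. In neurons these mRNAs are found in the cell body and also in dendrites and axons. Ribosomal protein genes have left many processed pseudogenes in mammalian genomes, and their near-identical sequences make short reads hard to assign.

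Ribosomal protein genes took 0.442 to 0.597% of all counts of a library, and large and small subunit genes stood in nearly the same ratio in each library. The large subunit took 0.274 to 0.369% and the small subunit 0.167 to 0.228%, a ratio of 1.60 to 1.65 over the 20 libraries. Levels of different genes were compared as CPM per kilobase of transcript. The transcript length of a gene, here and below, is that of its lowest-numbered transcript in GENCODE vM21, and values per kilobase depend on that choice. Over all libraries the median was 50.8 CPM per kilobase for the 45 large subunit core genes and 57.3 for the 31 small subunit core genes. Among core genes with no near-identical copy the medians were 67.3 (31 genes) and 66.4 (21 genes).

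Single genes spanned a far wider range than the subunits did. Rps15, a small subunit protein at the decoding side, was highest, at 279.9 ± 24.03 CPM per kilobase in wild-type cortex and 290.1 ± 18.97 in wild-type hippocampus (SD, n = 5 each). Rps24 (244 ± 15.5), Rps14 (209 ± 17.3), Rps15a (149.6 ± 4.68) and Rps3a1 (149 ± 9.24) followed in the small subunit, on the same scale in wild-type cortex. The highest large subunit genes were Rpl4 (203 ± 10.4), whose protein reaches into the peptide exit tunnel, Rpl8 (200.4 ± 18.3), the stalk gene Rplp1 (187 ± 13.4), Rpl15 (157 ± 5.09) and Rpl22 (154 ± 7.90). Rpl4, Rps14 and Rpl8 lay within 1 SD of each other, as did Rpl15 and Rpl22 and likewise Rps15a and Rps3a1, so the order within each of these sets is not resolved. At the low end of the large subunit stood Rpl3l at 0.126 ± 0.0694 CPM per kilobase in wild-type cortex, then Rpl34 (7.71 ± 1.85), the retrocopy Rpl32l (9.21 ± 1.90), Rpl37 (11.2 ± 2.34) and Rpl7l1 (13.1 ± 0.681). At the low end of the small subunit stood Rps27l (8.84 ± 0.549), Rps6 (8.93 ± 1.27), Rps27rt (9.67 ± 1.49), Rps4l (10.7 ± 3.29) and Rps27 (17.1 ± 1.29). Rpl34, Rpl37 and Rps6 encode single-copy proteins of the same ribosome as Rps15, and each has a near-identical copy listed in the tables.

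**Figure D1:**
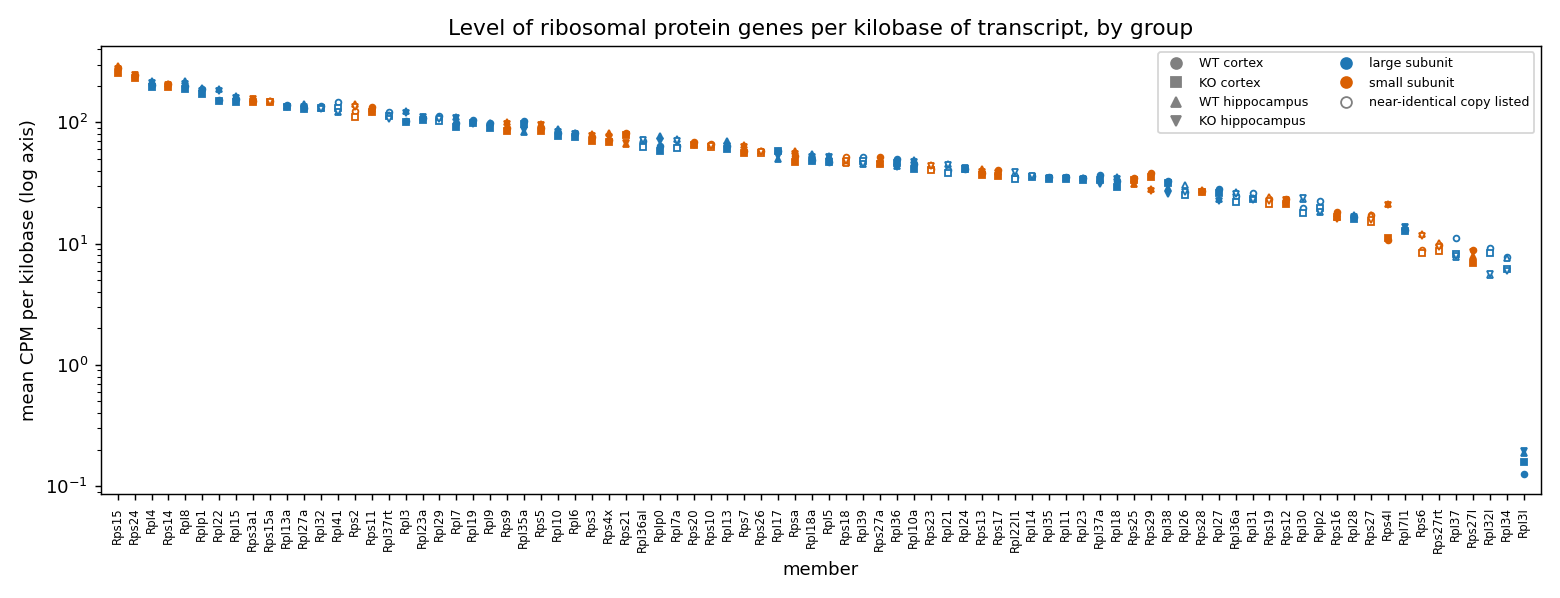
Mean CPM per kilobase of transcript (log axis) of 84 ribosomal protein genes with a transcript length, ordered by their mean over all libraries; marker shapes give the group (WT is Ncs1+/+, KO is Ncs1-/-, n = 5 each), colours the subunit, and open markers genes with a near-identical copy. The 4 groups lie close together for each gene, and Rpl3l stands alone near the bottom of the axis.

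Near-identical copies held a large part of the counts of several genes. By coding sequence (at least 90% identity over at least 80% of its length) or by name, 25 pseudogene or retrocopy rows of the tables could be assigned to 21 ribosomal protein genes. For 10 of the 25, the copy held more counts than the gene in both regions. Rps6 encodes the small subunit protein that S6 kinases phosphorylate downstream of mTOR. The Rps6 gene (chr4:86854099-86857368, minus strand, mm10 as in the tables) had a mean of 150.4 counts per cortex library, and the pseudogene Rps6-ps4 (chr2:75190995-75191855) 3887. The pseudogene thus held 96.3% of the counts of the pair in cortex and 95.6% in hippocampus. The start of the shared sequence is printed to show the identity of the pair: over 747 aligned bases of coding sequence the GENCODE vM21 transcripts of Rps6 and Rps6-ps4 differed at 0 bases, and bases 1 to 90 (5′ to 3′, build mm10) are the same run in both.
Rps6 and Rps6-ps4: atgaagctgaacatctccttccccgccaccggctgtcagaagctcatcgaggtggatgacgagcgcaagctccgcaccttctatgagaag

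The same split was seen for Rpl37, a large subunit protein, whose retrocopy Rpl37rt (chr5:115102922-115110269, minus strand) held 90.7% of the counts of the pair in cortex and 92.1% in hippocampus at 99.7% identity. Cortex shares were 81.4% for Gm15772 against Rpl26, 76.97% for Rpl34-ps1 against Rpl34 and 72.8% for Rpl14-ps1 against Rpl14. Other copies took little, among them Rpl32l (chr10:20208439-20209031, plus strand), inside the gene Map7 on the same strand, with 4.80% of the counts of the Rpl32 pair in cortex. The rows of Gm15772, Gm12191, Rpl34-ps1 and Rps27rt lie over the row of their own gene in the deposited tables, while GENCODE vM21 places those symbols on other chromosomes, so the tables give 1 position for both rows of the pairs with Rpl26, Rpl30, Rpl34 and Rps27. The sources used here do not say how the authors treated reads with several best positions. Levels of genes with a copy are therefore uncertain, and Rpl32 and Rpl32l are printed as a pair that does differ in sequence. The whole match of the pair covered 99.8% of the Rpl32 coding sequence at 96.04% identity. Its longest stretch without a gap was 255 bases with 7 differences. Within it, bases 166 to 255 of the Rpl32 coding sequence and the aligned bases of Rpl32l differ at the 4 capital letters.
Rpl32: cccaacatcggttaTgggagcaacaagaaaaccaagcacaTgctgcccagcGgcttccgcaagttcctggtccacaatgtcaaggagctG
Rpl32l: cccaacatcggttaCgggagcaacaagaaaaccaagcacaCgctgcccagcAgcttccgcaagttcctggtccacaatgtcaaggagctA

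**Figure D2:**
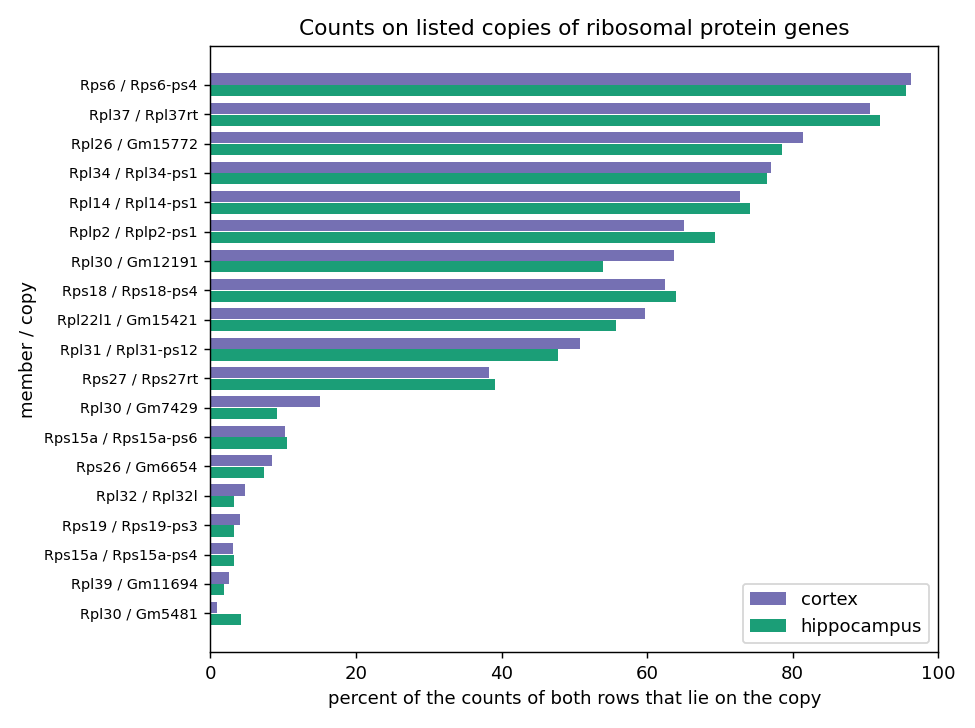
Percentage of the counts of a gene and its copy that lie on the copy, as the mean count of the 10 libraries of each region. Pairs are those in which the copy took over 2% in either region, without the pair that is not reported here. Bars start at 0, and the share of the copy reached 96.3% for Rps6-ps4 in cortex.

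The start regions of 4 genes whose levels are described below are shown as RefSeq gives them for GRCm38.p6, from 80 bases before the annotated start to 20 after it. They are printed to show short motifs, each of which was found in a minority of the ribosomal protein promoters searched below. Capitals mark CCGGAAG, a core of the sites of ETS family factors, and the pyrimidine runs CTCTTTC and CTTTCC, searched on both strands. Rpl5 lies at chr5:107900448-107900547, Rpl22 at chr4:152325646-152325745, Rpl37 at chr15:5116533-5116632 and Rpl38 at chr11:114668500-114668599, all on the plus strand.
Rpl5: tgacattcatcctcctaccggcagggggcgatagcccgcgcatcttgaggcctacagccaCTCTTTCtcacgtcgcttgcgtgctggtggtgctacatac
Rpl22: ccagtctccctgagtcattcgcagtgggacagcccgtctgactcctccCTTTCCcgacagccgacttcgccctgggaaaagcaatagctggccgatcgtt
Rpl37: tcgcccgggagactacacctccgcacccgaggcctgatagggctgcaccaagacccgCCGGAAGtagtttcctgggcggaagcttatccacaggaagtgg
Rpl38: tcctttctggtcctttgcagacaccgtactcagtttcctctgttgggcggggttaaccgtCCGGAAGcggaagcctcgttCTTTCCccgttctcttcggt

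RefSeq windows of 300 bases, reaching 50 bases past the start, were found for 65 of the 86 ribosomal protein genes. CCGGAAG occurred in 36.9% of them and in 9.05% of the windows of 26960 other genes. CTCTTTC occurred in 26.2% against 7.97%, and CTTTCC, which can overlap it, in 46.2% against 26.3%. TATAAA, the core of a TATA box, occurred in 10.8% against 14.2%. A match is a description of letters and not of a bound factor, nor of an oligopyrimidine tract at the start of the mRNA.

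The first comparison set knockout against wild type in frontal cortex. Of the 86 genes tested, which are 85 ribosomal protein genes and Rps19bp1, 84 had a log2 fold change below 0 in knockout, while 49.4% of all 14823 genes tested did, and the median was -0.09 against 0.00 for all genes. Large and small subunit genes had medians of -0.09 each, with 49 of 50 and 34 of 35 genes below 0. No gene passed the adjusted threshold (0 of 86, against 0.027% of all genes, 0.0135% higher and 0.0135% lower), and 17 had an unadjusted p under 0.05 in edgeR's quasi-likelihood test, or 19 in DESeq2, where edgeR found 14.8% of all genes. In 0 of 86 genes were the 2 groups free of overlap (2.25% of all genes).

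Rpl37 had the most negative fold change. Its level was 10.4, 6.997, 10.6, 11.3 and 7.56 CPM in the wild-type and 6.01, 7.28, 6.07, 6.89 and 8.03 CPM in the knockout cortex libraries. Wild-type libraries 2 and 5 lay within the knockout range, and the log2 fold change was -0.45 (SE 0.14), with an edgeR adjusted p of 0.235. Rpl37rt, which holds most reads of the pair, was at 86.7, 85.4, 81.1, 85.1 and 77.4 CPM in wild type and 81.4, 74.2, 73.6, 78.4 and 74.9 CPM in knockout, a log2 fold change of -0.12 (SE 0.04). The fold change of the retrocopy was the smaller of the pair, and with both rows summed that of Rpl37 was between these, at -0.15.

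Rps27a, which encodes a fusion of ubiquitin with a small subunit protein, was at 35.6, 31.98, 33.6, 33.2 and 29.6 CPM in wild-type cortex and 31.2, 28.8, 27.1, 29.3 and 28.2 CPM in knockout cortex. The knockout libraries lay at the lower end with wild-type library 5 among them, and the log2 fold change was -0.18 (SE 0.06), with an edgeR adjusted p of 0.243. Rps27l, a paralogue of Rps27 that p53 is known to induce, was at 4.68, 4.42, 4.64, 4.31 and 4.01 and 3.66, 3.04, 4.11, 3.47 and 3.14 CPM, a log2 fold change of -0.34 (SE 0.11). Its groups overlapped only where knockout library 3 lay above wild-type library 5. Rpsa, the small subunit protein also known as the laminin receptor, was at 108.6, 101.5, 98.3, 109.7 and 89.5 and 96.7, 86.8, 89.7, 92.97 and 93.2 CPM, a log2 fold change of -0.14 (SE 0.05) with an edgeR adjusted p of 0.278. Only wild-type library 5 overlapped the knockout group, and without it Rpsa passed, at -0.18 (SE 0.05) and an adjusted p of 0.0451, when 563 of all genes (3.77%) passed. Next by p in the large subunit were Rpl10a at -0.13 (SE 0.05) and Rpl18 at -0.17 (SE 0.07), and in the small subunit Rps2, at the mRNA entry, at -0.15 (SE 0.06).

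The 3 stalk genes encode the flexible arm of the large subunit that recruits elongation factors. In cortex their log2 fold changes were -0.13 (SE 0.05) for Rplp0, -0.13 (SE 0.06) for Rplp1 and -0.19 (SE 0.08) for Rplp2, none past the adjusted threshold. Rpl5 and Rpl11, which travel with the 5S ribosomal RNA and bind Mdm2 when ribosome assembly fails, were at -0.00 (SE 0.04) and -0.05 (SE 0.06). Rpl5 was at 94.4, 99.3, 102.3, 97.02 and 89.7 CPM in wild type and 98.9, 94.97, 92.6, 95.01 and 100.2 CPM in knockout, so all knockout values lay within the wild-type range. All 10 genes of the exit tunnel and its rim were below 0, with a median of -0.06. Ncs1 lies on chromosome 2, where Rpl7a is 4.33 Mb and Rpl35 7.71 Mb from it, and these were at -0.05 (SE 0.05) and -0.04 (SE 0.06). Rps21, 149 Mb away, was at -0.06 (SE 0.09).

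The cortex values moved with single libraries and with transcript length. When each library was corrected for its dependence on exonic length, 60 of 86 genes were below 0 with a median of -0.04, and 6 had an unadjusted p under 0.05. Without wild-type library 5 all 86 genes were below 0 (median -0.12, 34 at an unadjusted p under 0.05), and without wild-type library 4 it was 77 (median -0.06, 7). Without knockout library 1 it was 85 (median -0.12, 28). Astrocyte markers were below 0 as well in knockout cortex (7 of 7, median -0.13, summed level 6296 to 7133 CPM in wild type, against 6110.3 to 6369 CPM in knockout). Markers of striatal neurons (8 of 8, median 0.21, 627 to 1049 and 688 to 1195 CPM) and of meninges (6 of 6, median 0.29, 73.9 to 141 and 108.7 to 156 CPM) were above 0. Of the other lists, microglia (6 of 7, median -0.10, 255 to 299 and 253 to 274 CPM) and neuron markers (6 of 7, median -0.06) were mostly below 0. Endothelium and blood (6 of 7, median 0.09, 203 to 315 and 208 to 290.0 CPM) and oligodendrocyte markers (5 of 6, median 0.02) were mostly above 0, as were 3 of the 4 choroid plexus and ependyma markers tested. The choroid plexus and ependyma list summed to 8.83 to 17.8 CPM in wild-type cortex libraries. In knockout cortex libraries it summed to 13.0 to 251 CPM, with a median of 15.8 CPM. The highest was knockout library 1, where Ttr was at 207 CPM. No marker passed the adjusted threshold, none of astrocytes, striatal neurons or meninges was at 0 in a cortex library, and the part of these lists in the values of ribosomal protein genes was not tested.

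In hippocampus the values lay nearer to 0, and they moved with single knockout libraries. Of 86 genes, 61 were below 0 in knockout (46.9% of all 15042 genes), with a median of -0.03 against 0.01 for all genes. No gene passed the adjusted threshold in edgeR (0 of 86, against 0.0266% of all genes, 0.0133% higher and 0.0133% lower), 1 had an unadjusted p under 0.05 with edgeR and 1 with DESeq2 (edgeR 3.78% of all genes), and 0 were free of overlap (0.446%). Large and small subunit genes both had medians of -0.03. Without knockout hippocampus library 1, 84 of 86 genes were below 0, with a median of -0.12 and 26 at an unadjusted p under 0.05, and still none passed. Without knockout library 3, 40 of 86 were below 0 and the median was 0.01. Markers of choroid plexus and ependyma were above 0 in 8 of 8 genes tested in hippocampus (median 0.62, summed level 39.9 to 2271 CPM in wild type, against 42.6 to 3513 CPM in knockout), and astrocyte markers below 0 in 7 of 7 (median -0.10, 5658 to 6423 and 5304 to 6259 CPM). Microglia (6 of 7, median -0.07), endothelium and blood (6 of 7, median -0.17), meninges (4 of 6, median -0.15) and neuron markers (5 of 7) were mostly below 0, and oligodendrocyte markers above 0 in 6 of 6 (median 0.06). None passed, and their part in the values of ribosomal protein genes was not tested.

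Rplp0, the core protein of the stalk, had the smallest p in hippocampus. It was at 100.8, 108.6, 111.6, 106.1 and 96.9 CPM in wild type and 104.5, 100.6, 87.7, 92.3 and 90.003 CPM in knockout. Knockout libraries 1 and 2 lay within the wild-type range and the other 3 below it, and the log2 fold change was -0.13 (SE 0.06), with an unadjusted p of 0.0477 and an edgeR adjusted p of 0.991. Rplp1 was at -0.08 (SE 0.08) and Rplp2 at 0.03 (SE 0.11). Rps27l, below 0 in cortex, was at 0.13 (SE 0.17) in hippocampus, from 5.16, 3.57, 2.53, 4.40 and 4.03 CPM in wild type and 4.43, 4.76, 3.40, 4.52 and 4.26 CPM in knockout. Rpl34 had the most negative fold change, -0.34 (SE 0.24), and was at -0.08 with the reads of its copy Rpl34-ps1 added, at -0.15 without wild-type library 1 and at -0.57 without knockout library 1. Rpl26, next among copy-bearing genes at -0.17 (SE 0.14), came to 0.01 with the reads of its copy added. Rps2 was at -0.09 (SE 0.07), Rpl5 at -0.02 (SE 0.06) and Rpl11 at 0.01 (SE 0.10).

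Libraries of the same group differed, and ribosomal protein genes deviated together in them. The medians here are over the 86 ribosomal protein genes, with Rpl3l and without Rps19bp1. Relative to the mean of its region, the median was 0.12, 0.02, 0.03, 0.14 and -0.09 on the log2 scale in wild-type cortex libraries 1 to 5 and 0.05, -0.11, -0.09, -0.05 and -0.05 in knockout cortex libraries. In hippocampus it was 0.12, 0.07, 0.05, -0.07 and -0.04 in wild type and 0.25, 0.01, -0.17, -0.10 and -0.11 in knockout. Knockout hippocampus library 1 stood apart, with 84 of 86 genes above the region mean, and in knockout hippocampus library 3 only 2 of 86 were above it. Large and small subunit medians differed by little within a library, such as 0.26 and 0.25 in knockout hippocampus library 1.

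The same libraries differed in how all other genes depended on transcript length. The slope of log2 level on log2 exonic length, over other genes at 10 CPM or more and relative to the region mean, was -0.07, -0.03, -0.03, -0.05 and 0.04 in wild-type cortex libraries 1 to 5 and -0.02, 0.05, 0.05, 0.04 and 0.03 in knockout cortex libraries. In hippocampus it was -0.08, -0.03, -0.04, 0.03 and 0.03 in wild type and -0.10, -0.01, 0.10, 0.05 and 0.06 in knockout. In 20 of 20 libraries the slope and the ribosomal protein median had opposite signs: libraries above the mean for ribosomal protein genes had relatively more RNA of short genes. Transcripts of the core genes were short, with a median of 755.5 bases and a range of 345 to 2045. What makes libraries differ in this slope was not tested.

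**Figure D3:**
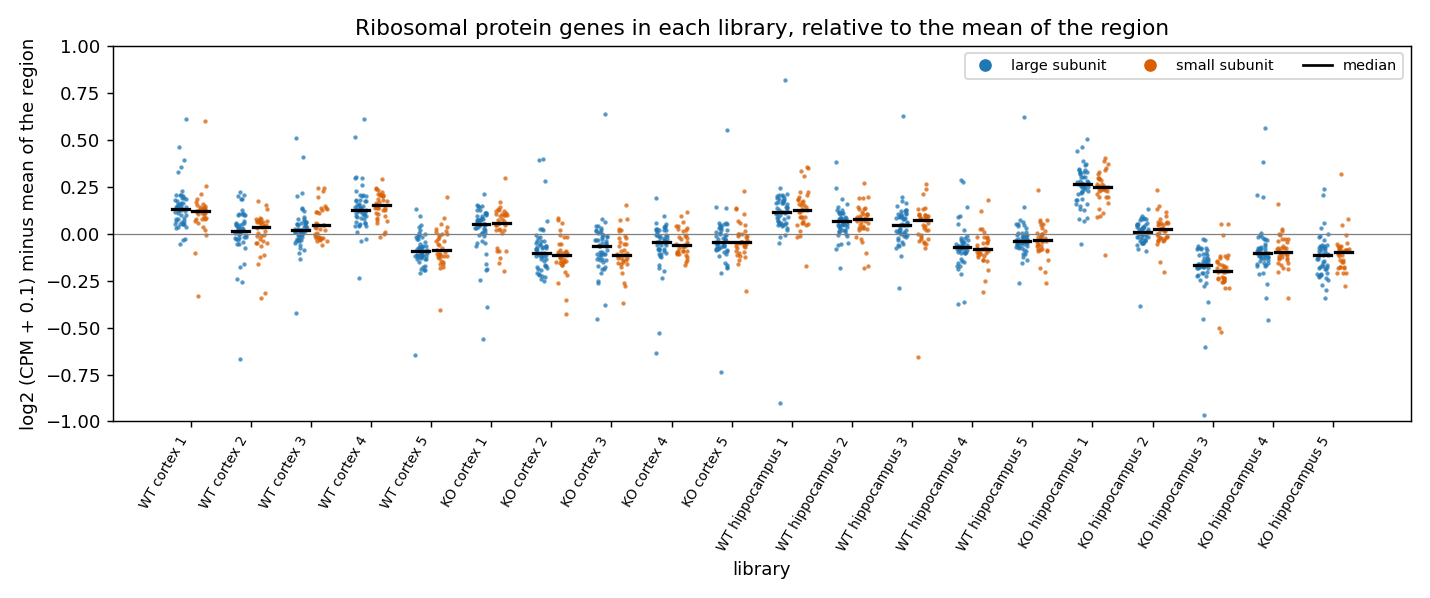
Level of each ribosomal protein gene in each library as log2 (CPM + 0.1) minus the mean of its region; points are genes, colours subunits and bars the median of each subunit. Both subunits move together in each library, highest in knockout (KO) hippocampus library 1 and lowest in knockout hippocampus library 3.

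Between regions, ribosomal protein genes as a group were level in wild type and mostly above 0 in knockout, and single genes differed in both directions. In wild type the median log2 fold change of hippocampus over cortex was 0.01 over 86 genes, beside 0.01 over all 14849 genes. In wild type 33 genes had an unadjusted p under 0.05 (47.3% of all genes), and 41 of 86 were below 0 (49.0%). After adjustment in edgeR, 12 were higher (18.8% of all genes) and 11 lower (20.7%), or 23 of 86 called against 39.5% of all genes, and 13 were free of overlap between regions (29.4% of all genes). Large subunit genes were called higher 6 times and lower 8 times, and small subunit genes 6 and 3 times. In knockout 7 genes were higher (19.2%) and 3 lower (19.6%), or 10 called against 38.8% of all genes, and 8 were free of overlap (29.7%). Scaled by total counts alone, the knockout split was 15 higher and 2 lower (40.2% of all genes called). In knockout 24 genes had an unadjusted p under 0.05 (46.6% of all genes), 24 were below 0 (47.9%) and 62 above (52.1%). The knockout median was 0.07, and without knockout hippocampus library 1 it was 0.00, with 11 genes called lower in place of 3 and 39.1% of all genes called. All 10 genes called in knockout were among the 23 called in wild type (43.5% of those), and all 23 had the same sign in knockout. This overlap was not counted over all genes, so it cannot be read as particular to ribosomal protein genes. Neuron markers were lower in hippocampus (6 of 7 called, median -0.32 in wild type, summed level 8104 to 9342 CPM in wild-type cortex and 6755 to 7481 CPM in wild-type hippocampus), as were all 8 striatal markers (627 to 1049 and 94.1 to 111.1 CPM). In wild-type hippocampus, oligodendrocyte markers were higher (6 of 6, 3 called, median 0.24). So were those of choroid plexus and ependyma (6 of 6, 5 called, median 2.24) and meninges (5 of 6, 2 called, median 0.54). Endothelium and blood markers were mostly lower (6 of 7, 1 called, median -0.25). Of astrocyte markers 3 were called higher and 3 lower, and of 7 microglia markers 1 was called lower. The part of cell composition in the region differences was not tested.

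Of the 5 retrocopies, 3 differed between regions in both genotypes, and their fold changes were the widest. Rps23rg1 (chr8:3567998-3584777, plus strand), which arose from Rps23, was at 3.75, 3.07, 3.80, 3.39 and 3.95 CPM in wild-type cortex and 1.73, 1.56, 1.41, 1.21 and 1.42 CPM in wild-type hippocampus. In knockout it was at 3.23, 2.53, 3.63, 3.52 and 3.79 and 1.24, 1.51, 0.925, 1.04 and 1.71 CPM, with no overlap between regions in either genotype. Its log2 fold change was -1.31 (SE 0.14) in wild type and -1.36 (SE 0.19) in knockout, with edgeR adjusted p-values of 7.94e-06 and 7.36e-05. Rps4l (chr6:148354656-148355597, plus strand), a retrocopy of Rps4x on chromosome 6, went the other way. It was at 15.3, 7.95, 9.68, 10.1 and 7.60 CPM in wild-type cortex and 20.4, 21.7, 23.7, 18.2 and 16.5 CPM in wild-type hippocampus, and at 11.2, 9.42, 11.2, 9.70 and 10.6 and 25.6, 17.1, 20.4, 17.4 and 18.4 CPM in knockout. The regions did not overlap in either genotype, and the log2 fold changes were 0.98 (SE 0.17) and 0.93 (SE 0.11), with edgeR adjusted p-values of 4.07e-04 and 2.24e-05. Rps4l overlaps Tmtc1 on the other strand, and the sources used here do not say whether the counting used strand. Rpl32l, inside Map7, was lower in hippocampus at -0.75 (SE 0.17) and -0.58 (SE 0.14), while its parent Rpl32 was at -0.06 (SE 0.07) and -0.01 (SE 0.08) and was not called. The part of reads from Tmtc1 or Map7 in these rows was not tested.

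Among core genes higher in hippocampus, Rpl22 had the smallest adjusted p in wild type. It encodes a large subunit protein near the exit tunnel that ribosomes can do without, and was at 73.6, 72.2, 72.4, 78.8 and 68.4 CPM in wild-type cortex and 91.5, 87.03, 94.2, 86.1 and 86.4 CPM in wild-type hippocampus. In knockout it was at 69.9, 70.9, 69.1, 70.4 and 73.5 and 102.99, 85.2, 77.3, 82.6 and 83.4 CPM. All hippocampus libraries lay above all cortex libraries of their genotype, with log2 fold changes of 0.28 (SE 0.04) and 0.29 (SE 0.07) and edgeR adjusted p-values of 2.88e-04 and 0.00429. Rplp0 was at 95.5, 88.8, 81.2, 85.02 and 82.9 CPM in wild-type cortex, below all wild-type hippocampus values given above, and on the log2 scale rose by 0.27 (SE 0.05) in wild type and 0.26 (SE 0.06) in knockout. Of the other stalk genes, Rplp1 was at 0.03 (SE 0.06) and 0.09 (SE 0.09) and not called, and Rplp2 was lower in wild type at -0.32 (SE 0.07) but not called in knockout at -0.09 (SE 0.11). The Rplp2 call rested on the row, since with the reads of Rplp2-ps1 added the wild-type value was -0.07 with an adjusted p of 0.347.

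Rpl3, a protein next to the site where peptide bonds form, rose by 0.25 (SE 0.05) and 0.23 (SE 0.06), from 139 ± 8.23 CPM in wild-type cortex to 167 ± 8.21 CPM in wild-type hippocampus (SD, n = 5 each). Rpl7 rose by 0.16 (SE 0.05) and 0.26 (SE 0.07), and Rps2 by 0.20 (SE 0.06) and 0.27 (SE 0.08). Rps6 rose by 0.41 (SE 0.11) and 0.47 (SE 0.10), from 5.96, 8.38, 8.82, 8.27 and 7.78 CPM in wild-type cortex to 9.13, 9.55, 10.4, 11.6 and 12.1 CPM in wild-type hippocampus. These are few reads of the pair with Rps6-ps4, and with both rows summed the Rps6 value was 0.17 in wild type and 0.22 in knockout, still past the threshold. Rpl5 (0.16, SE 0.04), Rpl7a (0.18, SE 0.04), Rps7 (0.17, SE 0.05), Rps9 (0.15, SE 0.05) and Rps4x (0.18, SE 0.06) rose in wild type, and in knockout they were between 0.15 and 0.20 without passing. Rps9 did not pass in wild type with the length trend removed (0.10, adjusted p 0.0683), and Rps4x lost its call without wild-type cortex library 3 or 5 or wild-type hippocampus library 1 or 2. Rpl11, the partner of Rpl5, was at -0.05 (SE 0.08) and 0.01 (SE 0.09).

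Among core genes lower in hippocampus, Rps29 was called in both genotypes. It encodes a zinc-binding protein of the small subunit and was at 13.2, 15.5, 15.4, 15.6 and 14.3 CPM in wild-type cortex and 10.6, 11.5, 12.6, 9.30 and 10.6 CPM in wild-type hippocampus, with no overlap. In knockout it was at 15.5, 12.7, 10.96, 12.97 and 16.6 and 13.3, 11.1, 8.94, 10.7 and 8.78 CPM, with overlap. Its log2 fold changes were -0.45 (SE 0.09) and -0.37 (SE 0.14), with edgeR adjusted p-values of 9.07e-04 and 0.0458, and the knockout call was lost without any 1 of 8 libraries, all but knockout cortex library 3 and knockout hippocampus library 1. It was also lost with scaling by total counts alone, without the filter on low counts and with limma-voom. Rpl35a fell by 0.32 (SE 0.06) in wild type, from 52.5, 48.1, 48.2, 55.4 and 48.8 to 44.9, 41.7, 39.8, 36.7 and 40.4 CPM with no overlap, and Rpl41, the shortest protein of the ribosome, fell by 0.29 (SE 0.06). Rpl37 fell by 0.54 (SE 0.15) in wild type, to 7.31, 6.87, 6.19, 4.98 and 7.17 CPM, and was at -0.05 (SE 0.13) in knockout. With Rpl37rt added, Rpl37 was at -0.14 in wild type with an adjusted p of 0.066. This comparison and that of genotypes in cortex share the wild-type cortex libraries, so the 2 low values of Rpl37 are not separate evidence. Rps21 (-0.29, SE 0.09), Rpl27 (-0.26, SE 0.08), Rpl38 (-0.21, SE 0.08) and Rpl17 (-0.21, SE 0.06) were also lower in wild type. Of these, 3 rested on single libraries. Rpl17 was lost without wild-type cortex library 1, and Rpl27 without wild-type cortex library 1 or 2 or wild-type hippocampus library 3, 4 or 5. Rpl38 was lost without wild-type cortex library 1, 3 or 4 or wild-type hippocampus library 2, 3, 4 or 5. With scaling by total counts alone, Rpl17, Rpl27 and Rpl38 did not pass, nor did Rpl38 with DESeq2 or without the filter on low counts. Without knockout hippocampus library 1, Rpl17, Rpl27, Rpl35a, Rpl38, Rpl41 and Rps21 were called lower in knockout too, with Rpl38 at -0.41 (SE 0.08).

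**Figure D4:**
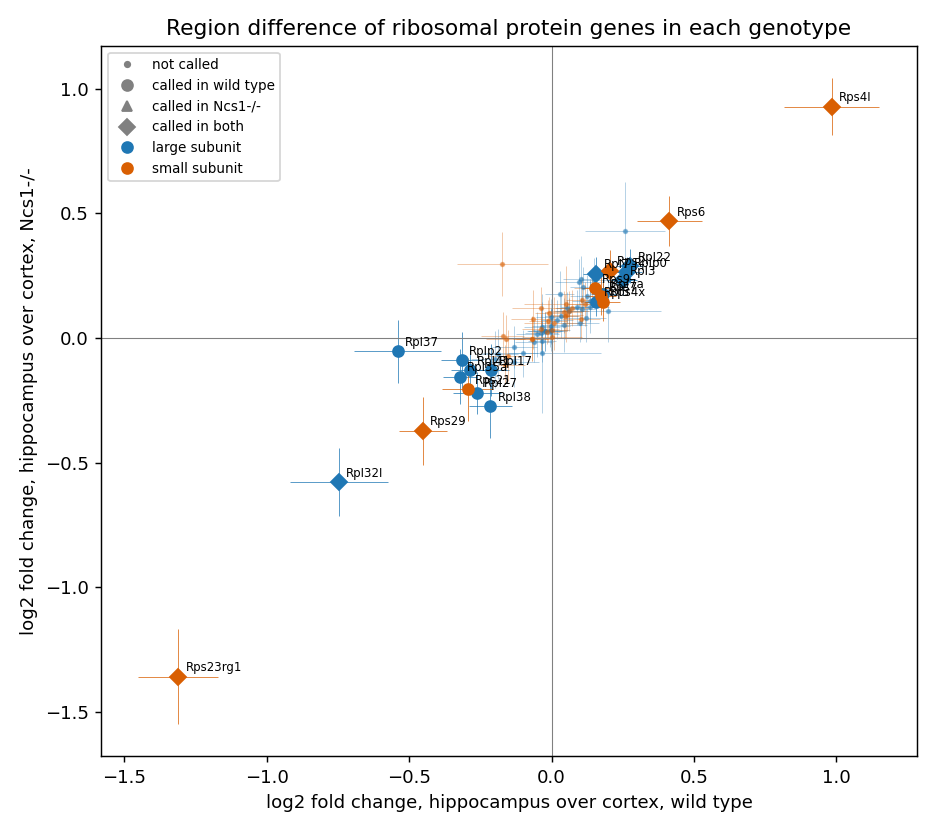
Log2 fold change of hippocampus over cortex for the 85 ribosomal protein genes tested, in wild type (horizontal axis) and knockout (vertical axis), with bars of 1 SE; marker shapes show where a gene was called with edgeR at an adjusted p of 0.05 and colours the subunit. Rps23rg1 and Rps4l lie far from the rest in both genotypes, and the 10 genes called in both lie near the diagonal.

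Replicate numbers paired the wild-type libraries of the 2 regions, and with the number as a block 14 genes were higher and 15 lower in wild type, where 44.6% of all genes were called. Rpl4 and Rpl21 joined the higher genes and Rpl36, Rpl39, Rps25 and Rps27a the lower ones. In that fit Rpl4, the highest large subunit gene, was at 0.11 (SE 0.04) with an edgeR adjusted p of 0.0375, and Rpl39, a small protein in the exit tunnel, at -0.19 (SE 0.06) with 0.0356.

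Region differences went with transcript length among the 76 core genes. Across genes, which are not independent replicates, the log2 fold change and log2 transcript length had a Pearson's r of 0.37 in wild type and 0.38 in knockout (Spearman's rho 0.40 and 0.36). The 11 core genes called higher in wild type had a median transcript of 975 bases and the 9 called lower 582 bases. The shortest gene called higher was Rpl22, at 474 bases, and the longest called lower Rplp2, at 964. Over all other genes the relation had the opposite sign (r -0.07 in wild type and -0.08 in knockout, with exonic length). With the length trend of all genes removed, 11 genes were called higher and 16 lower in wild type, in place of 12 and 11 (40.8% of all genes called). In knockout the counts were 7 and 9, in place of 7 and 3 (41.1% of all genes). For genotype the core genes had r of 0.14 in cortex and -0.00 in hippocampus, and other genes 0.22 and 0.19.

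**Figure D5:**
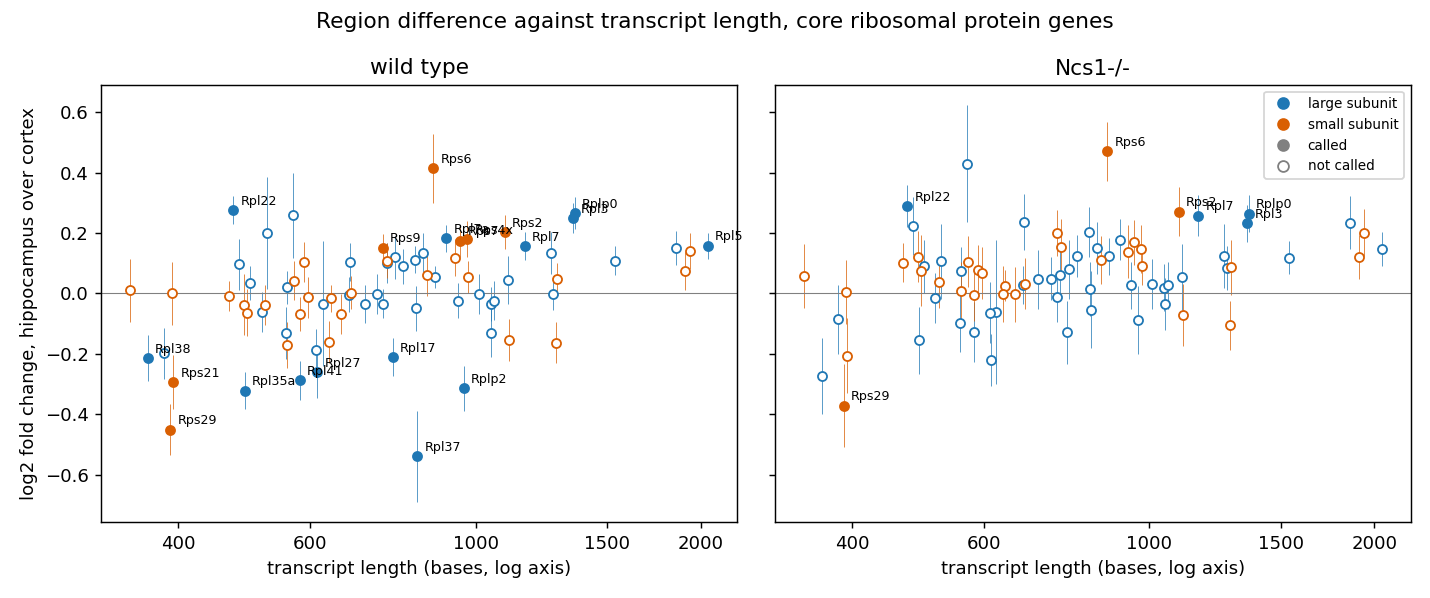
Log2 fold change of hippocampus over cortex (bars 1 SE) against transcript length in bases (log axis) for the 76 core genes, in wild type (left) and knockout (right); filled points were called with edgeR at an adjusted p of 0.05. In wild type most genes called lower are short, and Rpl22 is a short gene called higher.

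Paralogues took similar shares of each pair in the 4 groups, with no test made of the shares. Per kilobase, Rpl22l1 made up 18.6% ± 0.540 of the Rpl22 pair in wild-type cortex, 18.8% ± 1.30 in knockout cortex, 17.02% ± 0.849 in wild-type hippocampus and 17.5% ± 0.961 in knockout hippocampus (SD, n = 5 each). Rpl22l1 itself was at 0.13 (SE 0.06) and 0.17 (SE 0.08) between regions and did not pass. Shares were taken without the reads of copies. The copy Gm15421 held 59.7% of the counts of its pair with Rpl22l1 in cortex and 55.7% in hippocampus, so the share of Rpl22l1 is uncertain. Rpl36al was the larger part of its pair, at 73.8% ± 1.54 in wild-type and 74.01% ± 2.74 in knockout cortex, and 72.8% ± 1.74 and 73.4% ± 0.958 in hippocampus. Rpl7l1, whose protein acts in large subunit assembly, was 11.8% ± 1.07 of its pair in wild-type cortex and 11.1% ± 0.763 in wild-type hippocampus. Rps27l was 34.1% ± 1.998 and 31.6% ± 2.41 of its pair in cortex, and 31.1% ± 6.39 and 35.4% ± 2.91 in hippocampus. Rps27rt, not counted there, held 38.2% of the counts of its pair with Rps27 in cortex and 39.1% in hippocampus. Rpl3l, the form known from skeletal muscle and heart, was 0.122% ± 0.0659 of its pair in wild-type cortex. The retrocopy Rps4l, called by region above, was 12.98% ± 3.01 of the pair with Rps4x in wild-type cortex and 20.8% ± 1.99 in wild-type hippocampus, and 13.8% ± 1.27 and 21.5% ± 2.003 in knockout, so hippocampus libraries (lowest 18.9%) did not overlap cortex libraries (highest 18.0%).

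Rps19bp1, the gene that is no ribosomal protein, was at -0.06 (SE 0.08) for genotype in cortex and -0.06 (SE 0.09) in hippocampus, and at 0.02 (SE 0.08) and 0.02 (SE 0.09) between regions, and was not called.

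The interaction of genotype and region was tested over the 20 libraries. Of 86 genes, 67 were above 0 (49.1% of all 15310 genes), with a median of 0.04, and no gene passed the adjusted threshold in edgeR or DESeq2 (0 of 86, against 0% of all genes with edgeR). With edgeR 2 had an unadjusted p under 0.05 (1.4% of all genes), as with DESeq2. These were Rpl37 at 0.48 (SE 0.20) and Rps27l at 0.46 (SE 0.21), and the edgeR adjusted p was 0.9998 for each. With merged copies Rpl37 was at 0.07, and 1 gene had an unadjusted p under 0.05. The values of Rps27l given above show this pattern, with knockout below wild type in cortex and not in hippocampus. Without knockout hippocampus library 1 the median was -0.03 and 63 of 86 genes were below 0, so the sign of the median rested on that library.

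Other genes of translation were set beside the ribosomal protein genes. Of 10 elongation factor genes, 8 were below 0 in each genotype comparison, and none passed (median -0.09 for cortex, -0.07 for hippocampus). Of 34 initiation factor genes, 28 and 19 were below 0, with medians of -0.03 and -0.01. Of 15 mRNAs with an oligopyrimidine tract besides those of ribosomal proteins, 12 and 14 were below 0, and the medians were -0.03 and -0.04. Among these, Eef1a1, Eef1b2, Eef1d, Eef1g and Eef2 are also in the elongation list. Pabpc1, Eif3e, Eif3f, Eif3h and Eif4b are also in the initiation list, so the counts of these lists are not separate. Mitochondrial ribosomal proteins, which belong to another ribosome, were below 0 in 72 of 78 genes in knockout cortex (median -0.07) and 53 of 78 in knockout hippocampus (median -0.03), again with none past the threshold. In knockout cortex most genes of both ribosomes were thus below 0, none of them past the threshold.

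The factors that make ribosomes lay nearer to 0. Of the biogenesis factors, 64 were below 0 and 39 above in knockout cortex (median -0.02), and 51 were below and 52 above in knockout hippocampus (median 0.00). The 15 genes of RNA polymerase I and its factors had medians of -0.01 and -0.00, and the 17 genes of mTOR signalling of 0.05 and 0.05, with 11 and 12 above 0. Noncoding hosts of small nucleolar RNAs had medians of -0.07 over 8 genes in cortex and -0.00 over 9 in hippocampus. None of these lists had a gene past the adjusted threshold for genotype.

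Between regions, genes of these lists were called in both directions. Against 18.8% of all genes called higher and 20.7% called lower in wild type, 17 of 78 mitochondrial ribosomal proteins were called higher and 2 lower (median 0.08). Of the biogenesis factors 17 were called higher and 2 lower (median 0.07), with Npm1, a nucleolar chaperone, at 0.33 (SE 0.04). Of the 34 initiation factors 9 were called higher and 3 lower, with Eif1b at 0.33 (SE 0.05), and of the 15 other oligopyrimidine mRNAs 9 were called higher and 1 lower. The oligopyrimidine list shares genes with the other lists, Npm1 and Eef1a1 among them, so these counts are not separate. Eef1a1, the main elongation factor outside mature neurons and muscle, rose by 0.34 (SE 0.04) in wild type and 0.33 (SE 0.04) in knockout. Snhg5, a host of small nucleolar RNAs, rose by 0.47 (SE 0.12), and Taf1b, a factor of RNA polymerase I, by 0.30 (SE 0.07) in wild type. Of the mTOR genes 3 were called higher and 3 lower, and Deptor, an inhibitor of mTOR, was lower in hippocampus, at -1.27 (SE 0.10), in wild type.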

How the data were processed

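Total RNA of 20 mouse brain libraries, 5 per genotype and region, was analysed from 1 table of expected counts per region, with totals of about 16600000 to 34600000. Per the submitters' processing notes, the authors used STAR 2.7.3a, Partek and build mm10, and per the labels' protocols RNA was extracted with an RNeasy kit. The deposited expected counts per gene are estimated and not whole, and were rounded here. Each listed gene had at least 10 counts over its table. The sources used here do not give the annotation, the strand setting or the treatment of reads with several positions.

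Counts were filtered with filterByExpr, scaled by TMM and tested with edgeR 4.0.16 (R 4.3.3) quasi-likelihood, Benjamini-Hochberg adjusted over all genes tested, at 0.05. Fold changes are log2 values. Samples were grouped by the labels, and no 2 libraries agreed within counting noise. Alternatives were other scaling, no filter, DESeq2 1.42.0, limma-voom (limma 3.58.1), removal of the trend with exonic length, a replicate block, removal of Rn45s, leaving out each library, and, added after seeing the data, merged copies found with blastn 2.17.0 in GENCODE vM21. edgeR, DESeq2 and limma-voom were tested on simulated data for 2 of the 5 comparisons, genotype in cortex and region in wild type, and the interaction, block and length-trend fits were not. Of 50 genes changed 1.2-fold, edgeR recovered 19 for genotype and 6 for region, so changes of that size are often missed. For genotype and region in turn, false calls in the simulations were 6 of 156 and 6 of 137 with edgeR, and 28 of 188 and 17 of 160 with DESeq2. With limma-voom they were 5 of 156 and 5 of 137.

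The same number pairs the wild-type libraries of both regions (correlations of deviations 0.137 to 0.634, each library best with its own number), a pairing taken from the data and not from the labels, which do not say what a number marks. Genes were named by rule: those past the threshold, at most 12 per direction, the 4 of each subunit with the smallest p, the 5 highest and 5 lowest per kilobase of each subunit, paralogue pairs, genes on chromosome 2 and genes of the role lists. The genes and lists were chosen with earlier results of these data known. A few genes and 1 pair with its copy are not reported here. Sequences are from RefSeq (GRCm38.p6) and GENCODE vM21.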

Additional observations from a re-analysis of the deposited data

Results flagged for a closer look

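The search covered 252 groups of 5 libraries, most for a ribosomal protein gene and the rest for Rps19bp1 or a value of the whole library. In 16 groups, all for a ribosomal protein gene, 1 library lay far from the other 4. Chance flags about 1 in 20 groups, and 16 of 252 is near that share. Genes deviated together within a library, so the groups are not independent. Knockout hippocampus library 1 was far above its group for 9 genes: Rpl17 at 53.7 CPM, Rpl21 at 104.2 CPM, Rpl3 at 185 CPM, Rpl36al at 46.7 CPM, Rpl4 at 368 CPM, Rplp2 at 22.6 CPM, Rps7 at 72.0 CPM, Rps15 at 197 CPM and Rps27a at 36.7 CPM. This is the library in which 84 of the 86 ribosomal protein genes lay above the mean of their region. Knockout cortex library 1 was far above its group for Rpl8 at 177 CPM, Rpl10a at 36.98 CPM, Rps9 at 70.8 CPM, Rps15 at 158 CPM and Rps21 at 38.3 CPM. In wild-type cortex, library 4 was far above its group for Rpl10a at 40.6 CPM, and library 5 far below it for Rpl4 at 284 CPM.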

How the results depend on the processing

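Of the results for single genes, 1425 values under alternatives kept their direction and their side of the threshold, 73 newly passed it and 36 no longer did. The exception in direction was Rpl26 for genotype in hippocampus, which was 0.0101 with merged copies; the merging itself adds the reads of Gm15772. The counts of genes called between regions in knockout moved most. Of genes called higher there were 7 (38.8% of all genes called in either direction), against 15 with total counts alone (40.2%), 12 without a filter on low counts (35%), 12 with DESeq2 (35.4%), and 7 to 16 when 1 library was left out (33.6% to 39.8%). Of genes called lower there were 3, against 9 with the length trend removed (41.1%) and 2 to 11 when 1 library was left out (11 without knockout hippocampus library 1, 39.1%). The higher counts came to 13 without knockout cortex library 1, 16 without knockout hippocampus library 3 and 11 without knockout hippocampus library 5. In cortex, 0 to 1 gene was called lower in knockout when 1 library was left out. The cause of these changes was not tested. With replicate number as a block, 19 genes were called higher and 4 lower between regions in knockout (41.6% of all genes). There the same-number correlations were 0.32, -0.24, 0.41, 0.30 and 0.22 for numbers 1 to 5, with numbers 3, 4 and 5 matching best with their own, so pairing did not hold by the rule that each exceed 0.1. Nor did it in the genotype comparisons, in which the block called 0 genes. In wild type, where the numbers paired libraries, the blocked counts of 14 and 15 stand above. Depth limits Rpl3l most, at a mean of 2.90 counts in cortex, where it was not tested.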
